A study of Mus musculus with 6 samples.

Results

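NF-κB is a family of transcription factors that macrophages hold ready for microbial products and inflammatory cytokines, and its activity is limited by inhibitors that NF-κB itself induces. The 10 genes described here are 4 that encode subunits (Rela, Relb, Nfkb1 and Nfkb2), 4 that encode proteins of the inhibitor of κB (IκB) family (Nfkbia, Nfkbie, Nfkbiz and Bcl3), Tnfaip3, which encodes the ubiquitin-editing enzyme A20, and Tnip1, which encodes a protein that binds A20. They were found by symbol among the 55487 Ensembl mouse genes of the deposited tables, and all 10 were present once. The libraries came from J774 cells, a mouse macrophage cell line, transfected by liposomes with either a control siRNA or an siRNA against NCOA4, the cargo receptor that delivers ferritin for degradation, with 3 biological replicates in each group. No stimulus such as lipopolysaccharide (LPS) is given in the labels for either group, and the methods name a single siRNA for each group, so that effects of that siRNA on other transcripts and effects of NCOA4 loss cannot be told apart. The values are TPM, that is, reads per gene divided by gene length and scaled to the same total in every library. Levels of different genes can be compared only as far as this length, that of all annotated exons merged, matches the transcripts expressed.

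In resting cells the classical subunits, chiefly the RELA and NFKB1 products, are held in the cytoplasm by the IκB proteins encoded by Nfkbia, Nfkbib and Nfkbie. Signals from Toll-like, interleukin-1 and tumor necrosis factor receptors activate the IκB kinase, which marks these inhibitors for degradation and frees the dimers to enter the nucleus. There they induce Nfkbia and Tnfaip3 among many other genes, and these close the loop. The products of Bcl3 and Nfkbiz act in the nucleus, where they bind subunits and change which genes are transcribed.

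Because several of these genes are known NF-κB targets themselves, their promoters are shown first. Promoter sequences (RefSeq, GRCm38.p6, from 250 bases before to 50 bases after a start site) were held for 7 of the 10 genes, all but Nfkb1, Relb and Nfkbiz. The κB consensus, the sequence that NF-κB dimers bind, was searched on both strands. It occurred in 6 of these 7 genes, that is, in Nfkb2, Nfkbia, Nfkbie, Bcl3, Tnfaip3 and Tnip1 but not in the window of Rela, against 9.55% of the 27025 genes with a promoter in the same table and 8.46% of the 32851 windows. The looser form GGGNNNNNCC, which contains the consensus, occurred in all 7 genes, but also in 53.5% of genes, and so separates little. A match is a description of the letters and does not show that a site is bound in J774 cells.

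The matches below lie before a RefSeq start site and outside the exons of their gene, and are printed on the gene strand with the consensus match in capitals and up to 30 bases on each side. Nfkbia is shown at chr12:55492648-55492706 (minus strand), Nfkbie at chr17:45555564-45555633 (plus strand), Tnfaip3 at chr10:19015411-19015452 (minus strand) and Tnip1 at chr11:54962958-54963027 (minus strand).
Nfkbia: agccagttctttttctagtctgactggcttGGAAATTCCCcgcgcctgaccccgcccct
Nfkbie: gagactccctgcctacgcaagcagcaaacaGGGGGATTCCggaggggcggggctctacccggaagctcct
Tnfaip3: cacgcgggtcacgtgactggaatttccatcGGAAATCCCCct
Tnip1: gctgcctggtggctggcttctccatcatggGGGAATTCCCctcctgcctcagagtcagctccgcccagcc

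The match of Nfkbia begins 29 bases before the start, that of Tnip1 57 bases before it, and that of Nfkbie, the farthest of the 4 matches printed, 106 bases before it. Tnfaip3 had a pair of matches, 125 and 12 bases before the first of its 2 RefSeq start sites. The gene as annotated by GENCODE M21 begins farther upstream, at position 19015657, so both matches lie within that gene. The palindromic match of Tnip1 (GGGAATTCCC) reads the same on both strands and overlaps 2 further matches that are shifted by a base. The same 10 bases occur 39 bases before the first start site of Nfkb2, inside an exon of another annotated transcript. The match of Bcl3 begins at base 3 of its transcript.

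**Figure D1:**
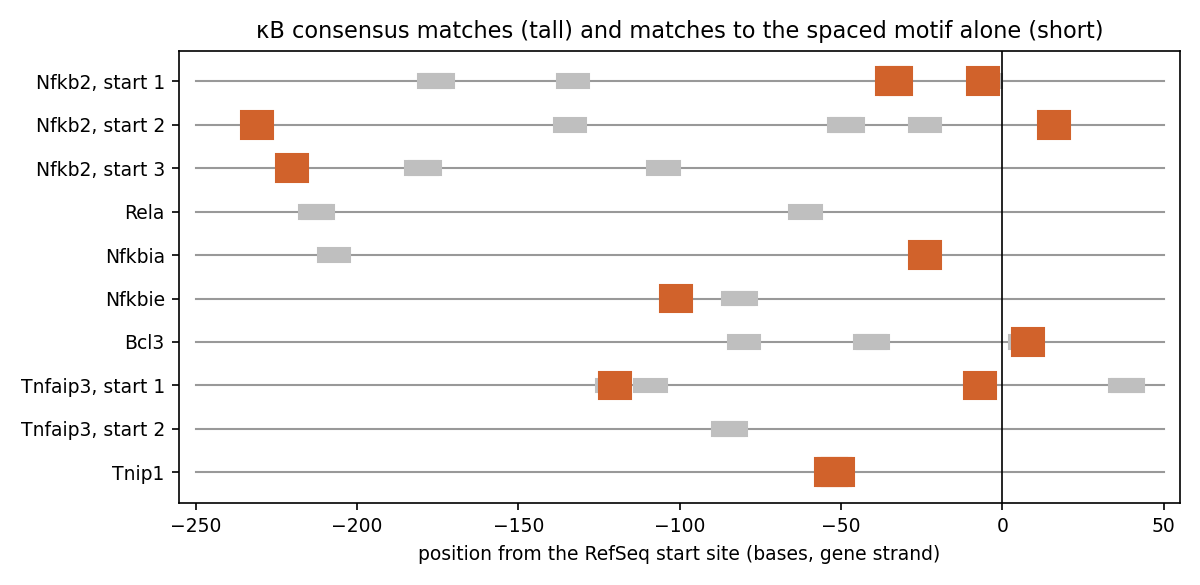
κB matches in the promoter windows of the 7 genes, with the position from the RefSeq start site in bases on the horizontal axis (0 marks the start) and 1 row for each start site. Tall boxes are matches to the κB consensus and short boxes are matches to the looser form alone. The Rela row holds no tall box, and Nfkb2 has tall boxes in each of its 3 rows. The windows of Nfkb2 overlap, and the tall box 225 bases before start 3 is the same site as that at base 11 of start 2.

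The knockdown and the cells were checked before the comparison. Ncoa4 had 19.7, 22.5 and 22.4 TPM with control siRNA and 9.63, 8.60 and 8.88 TPM with NCOA4 siRNA, which left 41.9% of the control mean, so the comparison is of partial loss. All 10 macrophage markers examined (among them Adgre1, Csf1r, Cd68 and Lyz2) were expressed, at a summed level of 9265.0 to 9413 TPM with control siRNA and 9939.6 to 10039 TPM with NCOA4 siRNA. Of these markers, 4 had an adjusted p under 0.05 from limma, all higher, where 5.42% of all tested genes passed this threshold (3.11% higher). The summed level of 19 markers of other cell types was at most 2.17 TPM in any library. Cd3e (T cell), Ly6g (neutrophil) and Krt8 (epithelial) were at 0 in every library, but not all markers of these cell types were. Cd3d (T cell) reached at most 0.106 TPM and Epcam (epithelial) at most 0.15 TPM in any library. The highest mean in each group was that of the endothelial marker Cdh5 (controls 0.655 TPM, knockdown 0.942 TPM). Whether the level of the macrophage markers bears on the values below was not tested.

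With control siRNA, Nfkbia was the most abundant of the 10 transcripts and Tnfaip3 the least. The means fell from 136 TPM for Nfkbia through Rela (77.6), Tnip1 (45.6), Nfkb2 (37.9), Nfkb1 (25.3) and Bcl3 (18.1) to Nfkbiz (8.92), Relb (7.88), Nfkbie (7.24) and Tnfaip3 (4.70). Neighbours in this order did not overlap in any of 3 libraries, except Nfkbiz with Relb and Relb with Nfkbie, whose ranges did overlap. With NCOA4 siRNA the order was the same but for Nfkbie, which moved from the 9th to the 7th place. There, at 10.9 TPM, it stood above Nfkbiz (9.17) and Relb (8.19), and no neighbours overlapped. Both orders depend on the merged exon lengths. In control replicate 1, Nfkb1 had 1741 reads over 12061 bases and Nfkb2 had 1001 reads over 4584 bases.

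**Figure D2:**
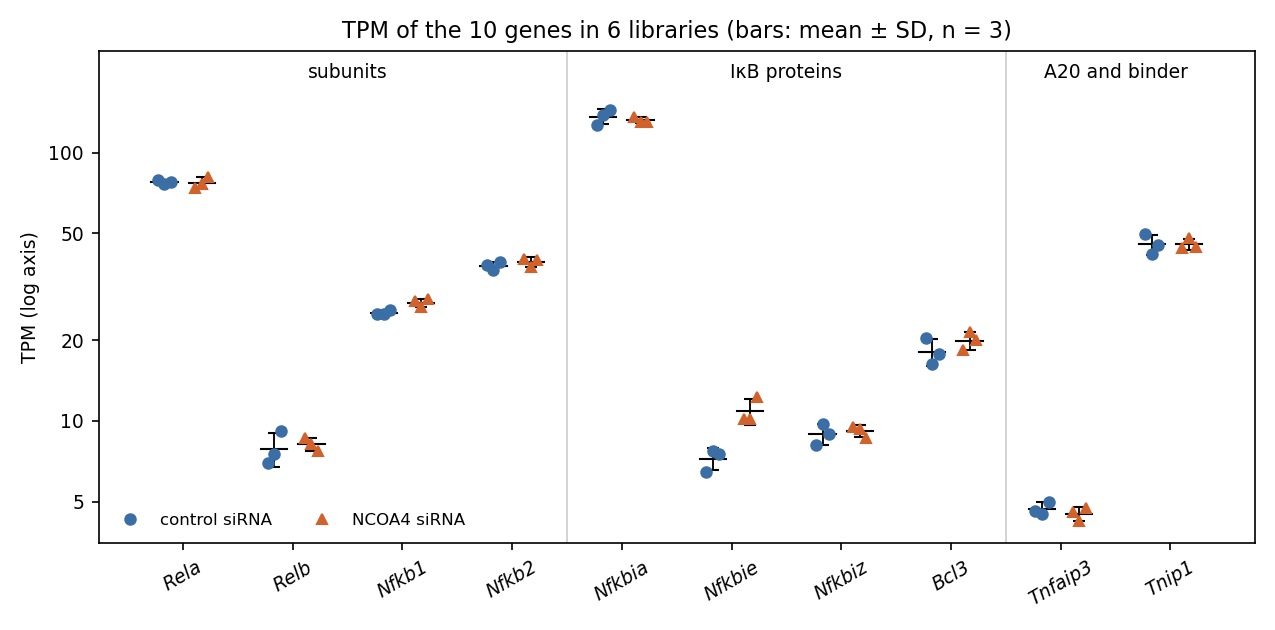
TPM (log axis) of the 10 genes in each library, with circles for 3 control siRNA libraries, triangles for 3 NCOA4 siRNA libraries and bars for the mean ± SD. The groups lie side by side in 8 genes and are separated in Nfkbie and, by a narrow margin, in Nfkb1.

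Differences between the groups were tested with limma on log2(TPM + 0.5) over all 13829 genes with a mean of at least 0.5 TPM, a limit that all 10 genes passed. Of the 10, 1 gene, Nfkbie, had an adjusted p under 0.05 and rose with NCOA4 siRNA, where 5.42% of all tested genes passed this threshold (3.11% higher and 2.31% lower). The 430 higher and 320 lower genes became 348 and 622 with median centring and 405 and 419 with quantile normalization, so the split over all genes rests on the scaling, whereas Nfkbie was higher with each. With 1.18% of all tested genes also changed by more than 1.5-fold, the study's second threshold, 0 of the 10 were, and limma-voom on rebuilt reads gave 0 as well. Nfkbie lay just under this limit, with a log2 fold change of 0.56 (0.57 with limma-voom) against 0.585. An unadjusted p under 0.05 from limma was found for 2 of the 10, and for 2982 of all 13829 tested genes. The libraries of the groups did not overlap in 2 of the 10 genes, Nfkbie and Nfkb1, against 28.4% of all tested genes. The median log2 fold change of the 10 genes was 0.04 and that of all tested genes 0.03. In whole-culture RNA, fewer cells that express a gene and less RNA of it in each cell cannot be told apart.

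Nfkbie encodes IκBε, an inhibitor that retains RELA- and REL-containing dimers in the cytoplasm and is itself induced by NF-κB. The gene (ENSMUSG00000023947) occupies positions 45555703 to 45563169 of chromosome 17 (plus strand, GRCm38, with GENCODE M21 annotation), and no other annotated gene overlaps it. Replicates 1 to 3 had 6.46, 7.75 and 7.5 TPM (113, 143 and 119 reads) with control siRNA and 10.2, 10.2 and 12.3 TPM (180, 169 and 226 reads) with NCOA4 siRNA. Every NCOA4 siRNA library was above every control library, and replicate 3 of the NCOA4 siRNA group was the highest. The mean rose from 7.24 ± 0.681 to 10.9 ± 1.22 TPM (SD, n = 3 each). An exact permutation test, two-sided, gave p = 0.1, and 3 libraries against 3 allow no smaller value. The log2 fold change was 0.56 (95% interval 0.30 to 0.81, or 1.23- to 1.75-fold), with an adjusted p of 0.0326 from limma with Benjamini-Hochberg adjustment.

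This call depended on having all 6 libraries. Without control siRNA replicates 1, 2 or 3, the adjusted p from limma was 0.0589, 0.0595 and 0.0779, and without NCOA4 siRNA replicates 1, 2 or 3 it was 0.103, 0.102 and 0.112. The log2 fold change then stayed between 0.47 and 0.60, the lowest value being that without NCOA4 siRNA replicate 3. The call was also lost without a filter on low TPM (0.0689), with a variance prior that has no trend (0.0610) and with the replicate number as a block (0.0772). It held under the other 7 alternatives, which included limma-voom on rebuilt reads (adjusted p = 0.00748) and median centring, where the log2 fold change was 0.50.

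**Figure D3:**
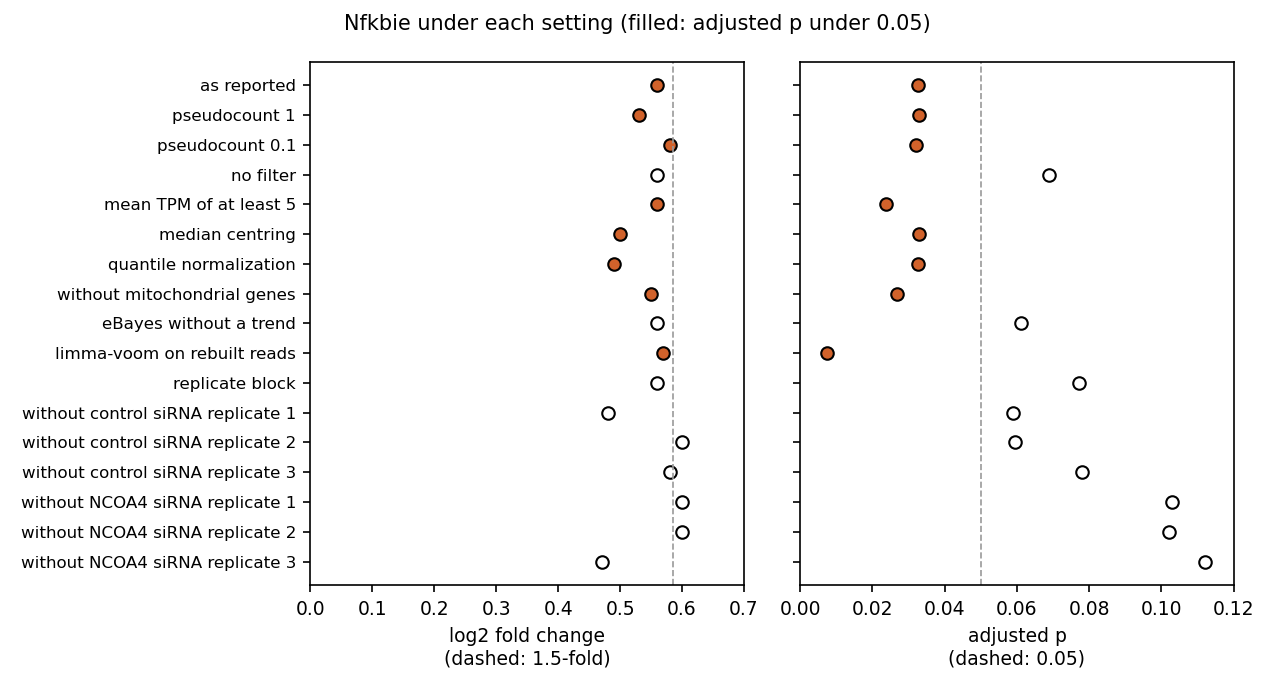
Log2 fold change of Nfkbie (left) and its adjusted p from limma (right) as reported and under 16 alternative settings, one in each row, with filled points where the adjusted p was under 0.05. The log2 fold change stays between 0.47 and 0.60 in every row, while 9 alternatives lie above the threshold in adjusted p, all 6 with a library left out among them.

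The other inhibitors of the IκB family did not pass the test. Nfkbia encodes IκBα, the inhibitor that is degraded and resynthesized fastest after a stimulus. Its TPM was 127, 138 and 144 with control siRNA and 136, 130.0 and 130.0 with NCOA4 siRNA, on at least 1140 reads a library. The NCOA4 siRNA values all lay within the range of the controls, and the log2 fold change was -0.04 (95% interval -0.17 to 0.09, adjusted p = 0.707 from limma). That interval runs from 0.887- to 1.06-fold, so a rise of the size measured for Nfkbie is outside it. The ratio of Nfkbie to Nfkbia in TPM was 0.0510, 0.0562 and 0.0520 with control siRNA and 0.0746, 0.0784 and 0.0946 with NCOA4 siRNA, without overlap. Nfkbie nevertheless made up a small part of the transcripts for cytoplasmic inhibitors, with a share of the sum of Nfkbia, Nfkbib and Nfkbie of 3.86% ± 0.301 (SD, n = 3) in the controls and of 5.89% ± 0.644 (SD, n = 3) after NCOA4 siRNA.

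Nfkbiz encodes IκBζ, a nuclear IκB protein that many late-induced genes such as Il6 require. It had 8.12, 9.73 and 8.91 TPM with control siRNA and 9.50, 9.36 and 8.65 TPM with NCOA4 siRNA, and the groups overlapped. Its log2 fold change of 0.04 had a 95% interval of -0.16 to 0.25 (adjusted p = 0.827 from limma) and turned to -0.02 with median centring. Bcl3, whose product joins homodimers of the NFKB1 and NFKB2 products at promoters, had 20.3, 16.3 and 17.7 TPM with control siRNA and 18.4, 21.4 and 20 TPM with NCOA4 siRNA. Control replicate 1 alone reached the level of the NCOA4 siRNA libraries, and the log2 fold change of 0.14 had a 95% interval of -0.08 to 0.36 (adjusted p = 0.440 from limma).

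Among the subunits, Rela encodes the main transactivating subunit and Nfkb1 the precursor of its usual partner. Rela had 78.9, 76.2 and 77.7 TPM with control siRNA and 73.7, 76.6 and 81.1 TPM with NCOA4 siRNA, on at least 1244 reads a library. The NCOA4 siRNA values spread wider than the controls and lay on both sides of them. The log2 fold change of Rela was -0.01 with a 95% interval of -0.12 to 0.10, among the narrowest of the 10 genes (adjusted p = 0.936 from limma), and its sign changed when control replicate 1 or NCOA4 siRNA replicate 1 was left out. Nfkb1 had 25.1, 25.0 and 25.9 TPM with control siRNA and 27.9, 26.5 and 28.4 TPM with NCOA4 siRNA. All 3 NCOA4 siRNA values were above the controls, by a small margin for replicate 2, and the log2 fold change was 0.12 (95% interval 0.00 to 0.23). Its unadjusted p was 0.0438 and its adjusted p 0.218 (limma), so Nfkb1 did not pass the test.

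Nfkb2 encodes the precursor and Relb the subunit of the slower, non-canonical arm, which receptors such as the lymphotoxin β receptor engage. Nfkb2 had 38.0, 36.5 and 39.1 TPM with control siRNA and 40.3, 37.4 and 39.7 TPM with NCOA4 siRNA, with a log2 fold change of 0.05 (95% interval -0.07 to 0.17, adjusted p = 0.633 from limma). Relb had 6.95, 7.52 and 9.18 TPM and 8.64, 8.22 and 7.72 TPM, in the same order, on 155 to 195 reads. Both genes overlapped between the groups. The log2 fold change of Relb was 0.06 (95% interval -0.20 to 0.33), and its control libraries varied by 14.7% (coefficient of variation), the most of the 10 genes, against 1.74% for those of Rela. Leaving out the lowest control, replicate 1, turned the value to -0.02. Relb and Bcl3 lie on the same strand of chromosome 7, 179 kb apart, and Nfkb2 overlaps a lncRNA on the opposite strand that had a mean of 5.61 TPM. The strand setting of the read counting is not given in the sources used here, so reads of such a pair may not be told apart.

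Rel, which encodes c-Rel and was taken in as the remaining subunit, had 13.6, 15.0 and 13.3 TPM with control siRNA and 16.9, 15.5 and 16.6 TPM with NCOA4 siRNA, a log2 fold change of 0.22 (95% interval 0.06 to 0.39, adjusted p = 0.130 from limma). Rela provided the greatest share of the summed TPM of all 5 subunits, 47.7% ± 0.740 (SD, n = 3) in the controls and 45.8% ± 1.54 (SD, n = 3) after NCOA4 siRNA. Nfkb1 provided 15.6% ± 0.108 and 16.4% ± 0.274, and Rel 8.59% ± 0.701 and 9.71% ± 0.33, in the same order. The shares of these 3 genes did not overlap between the groups, while those of Nfkb2 (23.3% in each) and Relb (4.84% and 4.87%) did. For single genes, such separation was found in 28.4% of all tested genes. A share also depends on the other genes in the sum, and the TPM of Rela itself overlapped between the groups (log2 fold change -0.01). The sum of the inhibitors Nfkbia, Nfkbib and Nfkbie was 1.10, 1.15 and 1.20 times the sum of the subunits with control siRNA and 1.13, 1.09 and 1.07 times with NCOA4 siRNA, and these ranges overlapped. As combinations of chosen genes, these shares and ratios were not tested, and their size depends on the gene lengths used.

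Tnfaip3 and Tnip1 are the ubiquitin arm of the feedback. A20 removes or edits ubiquitin chains on signalling adaptors upstream of the IκB kinase, and the TNIP1 product helps bring it to its substrates. Tnfaip3 had 4.63, 4.48 and 4.99 TPM with control siRNA and 4.57, 4.22 and 4.72 TPM with NCOA4 siRNA, with a log2 fold change of -0.05 (95% interval -0.28 to 0.17, adjusted p = 0.785 from limma). Tnip1 had 49.6, 41.8 and 45.4 TPM and 44.0, 48.0 and 44.6 TPM, with a log2 fold change of 0.00 (95% interval -0.17 to 0.17, adjusted p = 0.997 from limma) whose sign changed under 7 of 16 alternatives. The groups overlapped in both genes. For all 9 genes other than Nfkbie, the 95% interval lay within a 1.5-fold change in either direction.

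**Figure D4:**
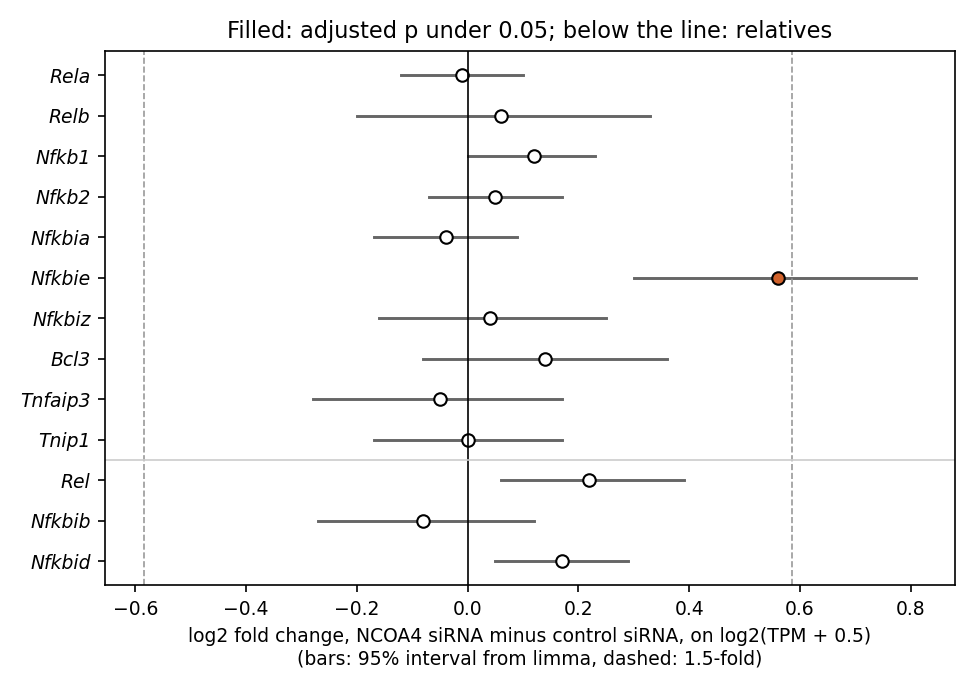
Log2 fold change (NCOA4 siRNA minus control siRNA, on log2(TPM + 0.5)) of the 10 genes and, below the line, of Rel, Nfkbib and Nfkbid, with 95% intervals from limma; dashed lines mark 1.5-fold. Nfkbie, at 0.56, is the filled point (adjusted p under 0.05), and its interval alone reaches past a dashed line.

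Other genes of the same families were drawn from a list of 8. Of these, 1 rose and 1 fell at an adjusted p under 0.05, against 5.42% of all tested genes. Tnip3, a relative of Tnip1 that also binds A20 and is induced by LPS in macrophages, fell from 9.73, 11.1 and 10.4 TPM to 6.48, 7.35 and 6.69 TPM. This was a log2 fold change of -0.57 with an adjusted p of 0.0143 (limma), the opposite sign to Nfkbie and about the same size. Nkiras2, which encodes a Ras-like protein that binds IκBβ, rose from 29.7 ± 0.906 to 35.9 ± 0.746 TPM (SD, n = 3 each, log2 fold change 0.27, adjusted p = 0.0228 from limma). Neither call held in every case with a library left out. That of Nkiras2 was also lost with median centring (0.0564), without a trend (0.0524) and with the replicate block (0.103, limma). That of Tnip3 was also lost with the block (0.0515, limma). Tnip3 lost it without control replicate 3 or any 1 of 3 NCOA4 siRNA libraries (adjusted p up to 0.0765, limma), and Nkiras2 lost it in all but the fit without control replicate 1 (up to 0.108). Nfkbib and Nfkbid, which encode IκBβ and the nuclear IκBNS, had log2 fold changes of -0.08 and 0.17 with adjusted p-values of 0.638 and 0.127 (limma).

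Upstream of NF-κB, 4 of 24 tested receptors and adaptors rose and 1 fell at an adjusted p under 0.05 (20.8% in all, against 5.42% of all tested genes). This and the other lists were chosen with earlier results of these data known, so a share above that of all tested genes is no independent evidence. Tlr2, a Toll-like receptor for bacterial lipoproteins, rose from 89.2 ± 5.91 to 134 ± 4.56 TPM (SD, n = 3 each, log2 fold change 0.59, adjusted p = 0.00451 from limma) and Nod2, a cytosolic receptor for muramyl dipeptide, from 3.81 ± 0.101 to 6.52 ± 0.474 TPM (log2 fold change 0.70, adjusted p = 0.00996 from limma). Tlr1, which pairs with the TLR2 protein, and the kinase gene Irak1 rose by less, with log2 fold changes of 0.28 and 0.27. Tlr1 lost its call with median centring (adjusted p = 0.0579, limma), without a trend (0.0723) and with the replicate block (0.09), and Irak1 with the block (0.0848). Cd14, the co-receptor for LPS, fell from 1174 ± 68.8 to 975 ± 19.1 TPM (log2 fold change -0.27, adjusted p = 0.0361 from limma). Tlr2 kept its call with each library left out in turn, Nod2 lost it without NCOA4 siRNA replicate 1 or 2 (up to 0.0638), and Irak1, Tlr1 and Cd14 lost it in 4, 5 and 5 of 6 such fits (up to 0.0934, 0.125 and 0.158). The count of 5 receptors then fell to 1 or 2 without control replicate 3 or any 1 NCOA4 siRNA library. Over all tested genes the count of 750 fell in these fits as well, to between 127 and 380.

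Of 32 kinases, ubiquitin ligases and adaptors between receptor and IκB kinase, 2 rose, a share of 6.25% that is near the 5.42% of all tested genes. Cyld, a deubiquitinase that restrains the pathway, rose from 11.3 ± 0.451 to 14.8 ± 0.866 TPM, and Card9, an adaptor of C-type lectin receptors, from 118 ± 7.0 to 139.9 ± 3.99 TPM (SD, n = 3 each). Their adjusted p-values were 0.0273 and 0.0451 (limma). Card9 lost its call with median centring, quantile normalization or removal of mitochondrial genes, without a filter, without a trend or with the replicate block (up to 0.119). Cyld lost its call without a filter (0.0523) or with the block (0.114). The count of 2 fell to 1 without control replicate 1 and to 0 without any other library. Of 8 tested ligands, Il1a and Il18 rose (log2 fold changes 0.49 and 0.41) and Tnfsf9 fell (-0.31), with adjusted p-values of 0.0121, 0.0314 and 0.0324 (limma), and Il18 lost its call with limma-voom (0.0723). These are 3 of 8 genes, against 5.42% of all tested genes. This count of 3 fell to 0, 1 and 0 without NCOA4 siRNA replicates 1, 2 and 3, while the 750 of all tested genes fell to 156, 127 and 182. Of 19 tested feedback genes outside the IκB and A20 families, such as Zfp36, Dusp1 and Socs3, 1 passed the threshold, Atf3, a repressor of inflammatory genes, which fell from 123 ± 7.94 to 98.8 ± 5.45 TPM (adjusted p = 0.0396 from limma). This share of 5.26% is near the 5.42% of all tested genes. Atf3 lost the call in 5 of 6 fits with a library left out, all but that without control replicate 1 (up to 0.146).

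Genes known as NF-κB targets changed in both directions. Of 47 tested targets, 4 rose and 11 fell (31.9% in all), where 3.11% of all tested genes were higher and 2.31% lower, and the median log2 fold change was 0.02. The target list, too, was chosen with earlier results of these data known. The 6 targets with the smallest adjusted p were split evenly. Cd86, Irf1 and Cd80 rose, with log2 fold changes of 0.74, 0.54 and 0.35, and Ccl3, Ccl4 and Bcl2l1 fell, with log2 fold changes of -0.95, -0.93 and -0.46 (adjusted p from 0.00127 to 0.00965, limma). Cd86 and Cd80 encode costimulatory ligands, Irf1 a transcription factor of the interferon response, Ccl3 and Ccl4 chemokines, and Bcl2l1 a survival factor. With single libraries left out, Cd86, Ccl3, Ccl4 and Bcl2l1 kept their calls, Irf1 lost it without NCOA4 siRNA replicate 2 (0.0547) and Cd80 without any 1 of 3 NCOA4 siRNA libraries (up to 0.0632). The count of 15 was 9 without control replicate 3 and 6, 4 and 5 without NCOA4 siRNA replicates 1 to 3. In the same fits the count over all tested genes, 750 with all libraries, was 380 and then 156, 127 and 182. A further 10 of the 57 listed targets, among them Il6, Il12b, Il10 and Cxcl1, had a mean under 0.5 TPM and were not tested. The κB consensus occurred in the promoter window of 19 of the 42 listed targets with a sequence (45.2%). It occurred in 3 of 7 family relatives (42.9%), 6 of 24 kinases, ligases and adaptors (25%), 3 of 18 receptors (16.7%), 1 of 9 ligands (11.1%) and 0 of 18 other feedback genes, beside 9.55% of all genes in the table.

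**Figure D5:**
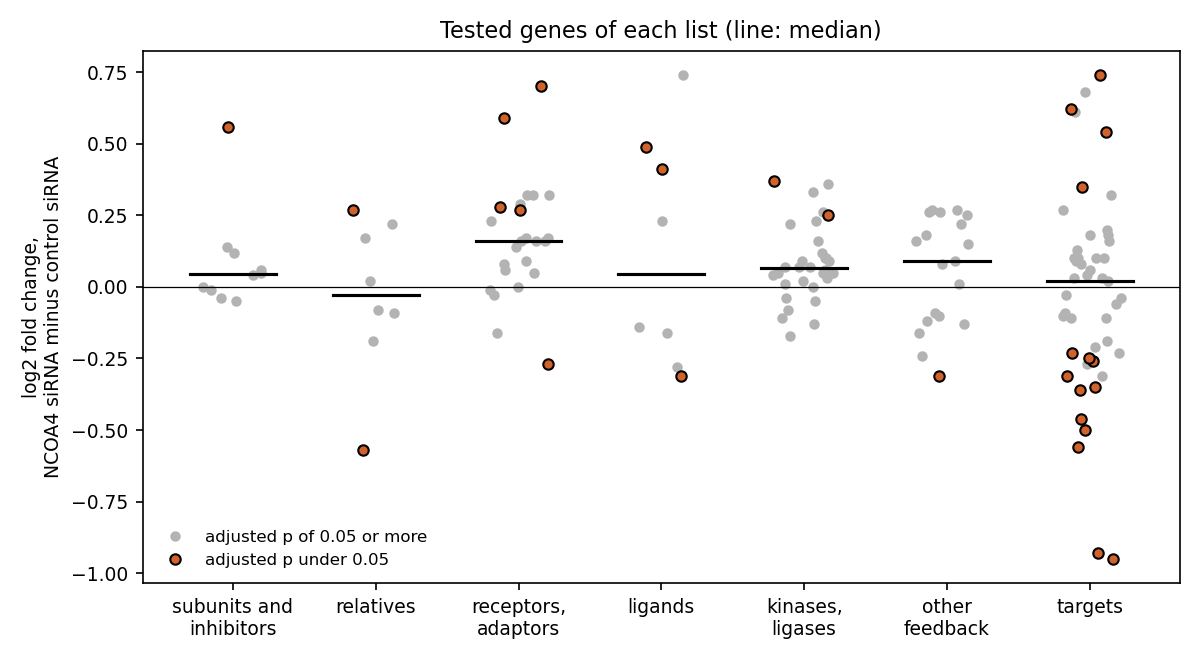
Log2 fold change (NCOA4 siRNA minus control siRNA) of every tested gene in 7 lists, with filled points for an adjusted p under 0.05 and a line at each median. The 10 subunits and inhibitors lie between -0.05 and 0.14 except Nfkbie at 0.56, while the targets run from -0.95 to 0.74.

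The genes whose profile over the 6 libraries was nearest to that of Nfkbie were sought among 10029 genes with a mean of at least 5 TPM, by the root mean square difference of log2(TPM + 0.5) centred on the control mean. The nearest were Akr1c13, an aldo-keto reductase gene on chromosome 13, at a difference of 0.0660, and Tlr2 at 0.0685. Akr1c13 had 7.04, 9.20 and 9.10 TPM with control siRNA and 12.1, 12 and 13.2 TPM with NCOA4 siRNA. In each of these genes, as in Nfkbie, control replicate 1 was the lowest library and NCOA4 siRNA replicate 3 the highest, a likeness for which they were picked. Akr1c13 had an adjusted p of 0.0411 (limma), which rose to as much as 0.152 with single libraries left out and stayed under 0.05 only without control replicate 1.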

How the data were processed

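RNA-seq was made from 3 control siRNA and 3 NCOA4 siRNA samples of J774 cells with stranded poly(A) libraries. The submitters' processing notes name Trimmomatic 0.33, HISAT2 2.1.0, featureCounts, edgeR and the build mm10, and the annotation is not given in the sources used here. The authors deposited TPM per gene and library, with no scaling between libraries. Of 55487 identifiers, 55227 took symbol, position and merged exon length from GENCODE M21 (GRCm38), and 260 had no name.

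TPM times length divided by the value of 1 read gave whole reads in all 6 libraries (within 0.05) for 98.7% of 21055 named genes above 0, the 10 genes included. These reads gave the depth, 15502155 to 18282129 per library, and an alternative test, but not the main test.

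Genes with a mean of at least 0.5 TPM entered a test in limma 3.58.1 (under R 4.3.3) by lmFit and eBayes with a trend on log2(TPM + 0.5), over all genes, without a block, with Benjamini-Hochberg adjustment over 13829 genes. Fold changes on this scale understate those of low genes. The fit was also run on simulated data, and no result of that run is used here. Single genes were also compared by an exact two-sided permutation test over 20 arrangements. Whether replicates came from separate transfections is not stated, so p-values measure the spread between these samples.

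The 10 genes and all lists were chosen with earlier results of these data known. Named were the 10 genes, Ncoa4, Rel, Nfkbib and Nfkbid, up to 6 genes with the smallest adjusted p under 0.05 from each list, and the 2 genes with the profile nearest to a member that passed. Markers, untested targets and list examples were named besides. Promoters were those of RefSeq (GRCm38.p6).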

Additional observations from a re-analysis of the deposited data

How the results depend on the processing

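Under all 16 alternatives 0 of the 10 genes had an adjusted p under 0.05 together with a fold change above 1.5. For Nfkbie this was a narrow result that did not always rest on the same threshold. Its log2 fold change was 0.60, above the limit of 0.585, without control replicate 2 or NCOA4 siRNA replicates 1 or 2. There only the adjusted p failed (0.0595, 0.103 and 0.102, limma). The number with an adjusted p under 0.05, 1 as reported, was 0 without a filter, with eBayes without a trend, with the replicate block and with each library left out in turn (range 0 to 0). Among the genes below the threshold the sign of values near 0 changed. Median centring gave -0.01 for Nfkb2, -0.02 for Nfkbiz and -0.06 for Tnip1. Quantile normalization gave -0.01 for Relb, -0.01 for Nfkbiz and -0.02 for Tnip1, removal of mitochondrial genes -0.01 for Tnip1 and limma-voom -0.02 for Tnip1. With single libraries left out, the range was -0.05 to 0.02 for Rela, -0.02 to 0.17 for Relb, -0.02 to 0.10 for Nfkbiz and -0.06 to 0.06 for Tnip1. The cause was not tested.

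Over all tested genes, those with an adjusted p under 0.05 numbered 750, but 499 without a filter, 404 without a trend, 1396 with limma-voom and 161 with the replicate block, and 127 to 807 with a library left out. Those also changed by more than 1.5-fold numbered 163, but 87 with the replicate block and 77 to 172 with a library left out. The numbers of genes past the threshold in the lists were, for family relatives, 1 with median centring, 1 without a trend, 0 with the block and 0 to 2 with a library left out. For kinases and ligases they were 0 without a filter, 1 with median centring, quantile normalization or removal of mitochondrial genes, 4 with limma-voom, 0 with the block and 0 to 1 with a library left out. For receptors they were 3 without a trend, 1 with the block and 1 to 5 with a library left out, and for ligands 1 without a filter, 1 without a trend, 0 with the block and 0 to 2 with a library left out. For targets they were 9 without a trend, 6 with the block and 4 to 13 with a library left out. For other feedback genes they were 0 without a filter, 2 with quantile normalization, 0 without a trend, 3 with limma-voom, 0 with the block and 0 to 2 with a library left out. The ratio of inhibitors to subunits was 1.26 and 1.22 without Rel in the sum and 0.395 and 0.373 in reads not divided by length, with control and NCOA4 siRNA, and 1.13 to 1.18 and 1.08 to 1.11 with a library left out.

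Whether replicate numbers pair the samples could not be decided. The deviations of same-numbered samples from their group means correlated at 0.0328, -0.0597 and 0.0627 over 10038 genes. The last of these was the highest of all pairs, whereas control replicate 1 correlated best with NCOA4 siRNA replicate 2 (0.0432). Correlations this small, in so few samples, cannot show whether same-numbered samples were prepared together. The block removes degrees of freedom in either case. At 113 to 226 reads per library, the relative counting error of Nfkbie is larger than that of Nfkbia or Rela. How much of its spread comes from counting was not tested.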
